A study of Mus musculus with 15 samples.

Results

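Between birth and 6 weeks of age, 2187 windows of the mouse kidney genome lost at least 20 percentage points of CpG methylation, out of 83919 autosomal windows that could be scored, a share of 2.61%. A window was 1 kb long and was scored when at least 3 of its positions carried at least 10 bisulfite calls in each of 3 newborn control and 3 adult libraries. Its value was the percent of methylated calls summed over those positions. A window was kept when the highest adult lay below the lowest control and the adult mean lay at least 20 points below the control mean, so the windows were chosen by the control and adult values themselves. The same rule with the direction turned round found 2537 windows that gained methylation (3.02% of those scored).

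Methylation was read by reduced representation bisulfite sequencing (RRBS), which covers CpG-rich restriction fragments, in kidneys of the mouse strain C57BL/6. The controls were 3 newborns (P0) of genotype Dnmt1 f/f, whose Dnmt1 alleles are flanked by loxP sites but are not recombined without Cre. The knockouts (KO) were 3 newborns of genotype Six2Cre Dnmt1 f/f, in which a Six2-driven Cre acts in nephron progenitors and their descendants and not in stroma, vessels or the collecting duct. The adults were 3 wild type mice of 6 weeks, so that control and adult differ in age and in the floxed allele, and these cannot be told apart. RNA sequencing was available for 3 further libraries each of P0 control and P0 KO, and for no adult.

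DNA methylation is copied to the new strand at each cell division by Dnmt1, a maintenance methyltransferase that recognises half-methylated CpG sites. Sites that lose methylation during development do so passively, when copying is prevented, or actively through oxidation by Tet enzymes, and loss in a differentiated organ is found mostly at distal regulatory elements and within genes. After birth the mouse kidney completes nephron formation within days, and proximal tubule cells, which reclaim sodium, phosphate, glucose, amino acids and filtered protein, come to make up a large part of the organ.

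The source label names Six2-positive cells, whereas the extraction protocol names the whole kidney, and stromal, endothelial, collecting duct and leukocyte markers were all present in the newborn RNA. In whole-organ material, a change in the mix of cells cannot be told apart from a change within cells, nor fewer cells of a type from less RNA per cell. The RRBS libraries held 18424875 to 88765177 calls and the RNA libraries 26773937 to 34102567 gene counts. The Y chromosome took 0.0954% to 0.124% of the calls in adults and 0.0194% to 0.0267% in controls, while the X took 1.35% to 1.40% and 2.35% to 2.37%. Sex was not given in the labels and cannot be told apart from age in these groups, and all windows described here lie on autosomes. Dnmt1 RNA, the targeted transcript, stood at 183, 156 and 190 CPM (gene counts scaled to a common library total) in controls and 109, 110 and 92.3 CPM in KO libraries (log2 fold change -0.74, SE 0.12, edgeR adjusted p = 0.00577). RNA control 3 stood apart from the other 2 controls: the summed CPM of 50 proximal tubule genes ranged from 5044 to 11945 over the controls, with control 3 highest, and Six2 RNA was 41.8 CPM there against 99.4 and 107 CPM.

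Few of the windows covered a gene start, but those that did allow the measured CpGs to be shown. RefSeq promoters (build GRCm38.p6), which run from shortly before a gene's start to just after it, had their middle in a losing window in 55 cases, from 53 genes. They were CpG-poor: the median was 6 CpGs per promoter, against 23 in the 9991 promoters centred on any scored window and 8 in the 733 whose window stood at 20% or more in controls. The 5 promoters below were chosen, with their values known, because at least 3 of their own CpGs were measured in every control and adult and because they include genes of tubular metabolism and uptake. Capital letters mark the CpGs measured there, and each is written 5′ to 3′ in the direction of its gene.
A1cf: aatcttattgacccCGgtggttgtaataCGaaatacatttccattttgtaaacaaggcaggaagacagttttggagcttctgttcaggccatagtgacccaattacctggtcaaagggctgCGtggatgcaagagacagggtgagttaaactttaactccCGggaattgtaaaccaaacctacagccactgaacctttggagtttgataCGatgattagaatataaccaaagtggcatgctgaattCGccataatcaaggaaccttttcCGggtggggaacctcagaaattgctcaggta
Dao: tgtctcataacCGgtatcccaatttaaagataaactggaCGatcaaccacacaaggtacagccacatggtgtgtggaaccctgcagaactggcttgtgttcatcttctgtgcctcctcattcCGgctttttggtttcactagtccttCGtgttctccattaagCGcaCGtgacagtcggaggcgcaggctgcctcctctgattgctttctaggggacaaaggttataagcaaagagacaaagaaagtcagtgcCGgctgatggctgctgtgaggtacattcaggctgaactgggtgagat
Chdh: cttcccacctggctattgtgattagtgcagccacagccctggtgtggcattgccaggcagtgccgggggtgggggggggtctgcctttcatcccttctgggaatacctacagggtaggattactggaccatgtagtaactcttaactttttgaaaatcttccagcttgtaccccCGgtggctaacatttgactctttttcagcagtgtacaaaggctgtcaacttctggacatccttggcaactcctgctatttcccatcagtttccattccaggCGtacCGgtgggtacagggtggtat
Amn: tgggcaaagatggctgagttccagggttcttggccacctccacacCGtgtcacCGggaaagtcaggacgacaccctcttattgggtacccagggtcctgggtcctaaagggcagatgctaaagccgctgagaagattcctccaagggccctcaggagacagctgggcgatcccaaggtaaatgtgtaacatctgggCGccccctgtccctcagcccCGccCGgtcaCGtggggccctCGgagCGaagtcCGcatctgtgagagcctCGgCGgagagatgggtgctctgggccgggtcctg
Proz: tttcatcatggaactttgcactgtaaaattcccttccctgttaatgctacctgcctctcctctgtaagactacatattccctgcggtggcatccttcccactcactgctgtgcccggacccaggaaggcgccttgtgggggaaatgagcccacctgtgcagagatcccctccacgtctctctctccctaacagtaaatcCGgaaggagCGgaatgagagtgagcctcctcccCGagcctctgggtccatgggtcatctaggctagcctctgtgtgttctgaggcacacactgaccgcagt

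A1cf, which encodes an RNA-binding cofactor of apolipoprotein B editing, lies on the plus strand, with its promoter at chr19:31868563-31868862. All 7 of its CpGs were measured, and methylation was 73.3%, 67.0% and 83.5% in controls, 31.9%, 34.0% and 33.1% in adults and, over 7 of the 9 positions on both strands, 55.4%, 53.5% and 54.5% in KO kidneys. Each group was separate from the others, with the KO kidneys between controls and adults, although the KO values rest on fewer positions. Dao encodes D-amino acid oxidase, an enzyme abundant in the proximal tubule (chr5:114004558-114004857, plus strand). Its 7 measured CpGs stood at 73.4%, 74.6% and 66.7% in controls, 52.8%, 40.7% and 40.8% in adults, and 61.5%, 59.1% and 58.4% in KO. The order of the groups was the same as at A1cf.

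Chdh, choline dehydrogenase (chr14:30021053-30021352, plus strand), fell from 79.0%, 73.5% and 78.2% in controls to 45.9%, 47.3% and 44.9% in adults over 3 CpGs. KO kidneys, read at 3 of its 4 positions, spread from 42.7% to 74.6% there and overlapped both groups. Amn encodes amnionless, the partner of cubilin in protein uptake by the proximal tubule (chr12:111270846-111271145, plus strand). Its 11 measured CpGs were at 42.6%, 33.1% and 39.9% in controls and 17.2%, 16.6% and 19.5% in adults, so this start was below 45% in every control. Proz, which encodes the vitamin K-dependent protein Z (chr8:13060658-13060957, plus strand), showed 59.4%, 84.7% and 74.8% in controls and 28.2%, 16.9% and 27.8% in adults over 3 CpGs.

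A losing window did not always mean a losing start. Of the 18 promoters with at least 3 measured positions of their own, those of Tomm5, Dtd1, D5Ertd579e, Ddhd1 and Fpgs had control and adult means under 4% at the measured promoter CpGs, although their windows had fallen. At Ddhd1, for instance, the promoter stood at 0% in all 3 controls while the window as a whole fell by 27.5 points. At these genes the loss came from other positions of the window.

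The 55 promoters were searched on both strands for 13 short motifs. The HNF1 half-site GTTAAT was found in 7 of them (12.7%), against 3.66% of the 9991 promoters and 6.96% of the 733 with the higher control methylation. The motif of the GATA family of factors, searched as AGATAA, was found in 10 (18.2%), against 4.95% and 10.8%. Among the 5 promoters printed above, the HNF1 half-site occurs in that of Proz and the GATA-family motif in that of Dao. The other 11 motifs included AP-1 (TGANTCA) at 12.7% against 3.98% and 10.1%, TFAP2 (GCCNNNGGC) at 18.2% against 28.0% and 16.5%, and ETS (CCGGAAGT) at 1.82% against 8.82% and 3.14%. The ESRR half-site, CEBP and GRHL motifs were found in 0 of the 55. These letter matches are descriptions and not binding sites, and base composition differs between the promoter sets (median GC 53% against 63% and 55%).

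Over the 2187 windows, mean methylation was 72.2%, 70.2% and 72.4% in controls 1 to 3 and 41.8%, 41.5% and 41.6% in adults 1 to 3. The group means were 71.6% ± 1.20 and 41.6% ± 0.127 (SD, n = 3 each). Since these libraries chose the windows, the difference is a description and carries no test. Over all 83919 scored windows the 2 groups were level, at 54.7% ± 0.211 and 54.8% ± 0.326.

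**Figure D1:**
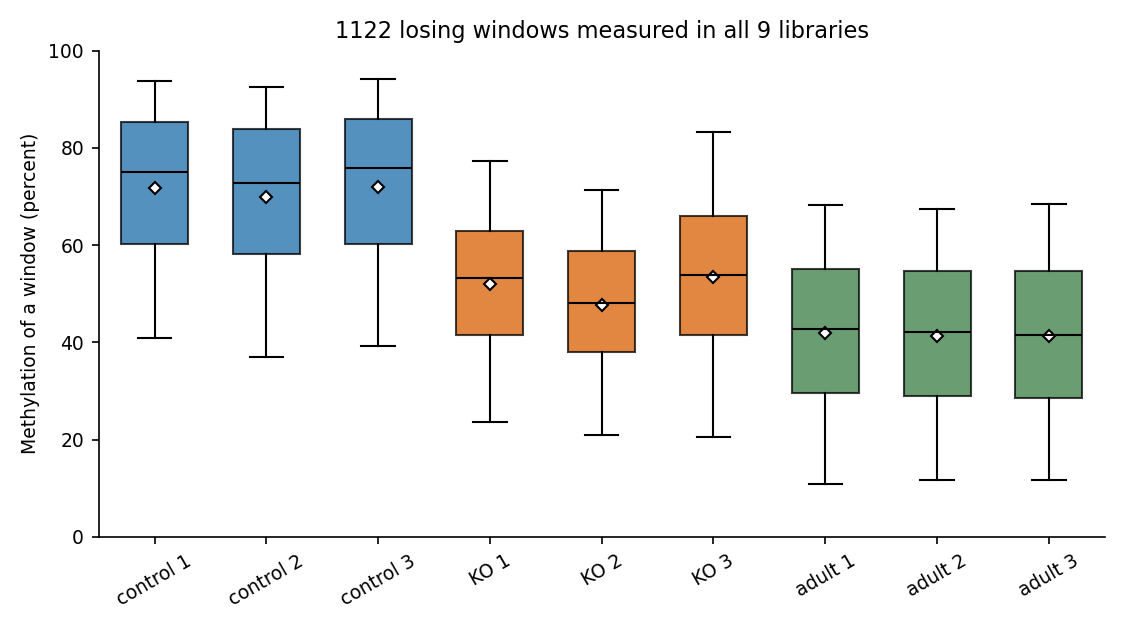
Methylation (percent, vertical axis) of the 1122 losing windows measured in all 9 RRBS libraries, by library. Boxes span the quartiles with the median as a line, whiskers run from the 5th to the 95th percentile and diamonds are means, over the positions covered in all 9 libraries for KO and over the scored positions for the others; the KO libraries, at 51.9%, 47.7% and 53.3%, lie between controls and adults.

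Most of these windows began high and ended at an intermediate level. The median window stood at 74.3% in controls (quartiles 60.8% and 84.9%) and 42.5% in adults (quartiles 29.5% and 54.8%). In 832 windows the control mean was at least 80%, in 1075 it was 50% to 80%, and in 280 it was under 50%. In adults 1576 windows stood between 20% and 60%, and only 73 fell under 10%. An adult level between 20% and 60% was thus the usual outcome. The median window fell by 27.5 points. The decrease reached 30 points in 871 windows, 40 points in 315, 50 points in 67 and 60 points in 15.

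The windows were chosen on sums over their positions, and the single positions are given here as a description of that choice. Of 10071 positions in these windows, 95.7% had a lower mean in adults than in controls, and every adult lay below every control at 68.8%. In 1892 windows, 86.5% of them, each measured position was lower in adults. Windows rested on a median of 4 positions, 883 of them on the minimum of 3, and a single library contributed between 30 and 2673 calls to a window.

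The 20-point limit passed through a continuum. The 3 windows just inside it differed between adults and controls by -20.003 to -20.006 points, and of these the window at chr8:4237001-4238000 over Lrrc8e and Map2k7 read 42.3%, 36.2% and 47.0% in controls and 19.1%, 24.5% and 22.0% in adults. Those just outside fell by 19.97 to 19.98 points, among them chr6:39498001-39499000 in Dennd2a, with 88.0%, 83.0% and 81.2% against 67.9%, 59.7% and 64.8%. The neighbours on both sides of the limit had like values.

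Relative to genes, losing windows lay within gene bounds more often than scored windows did. Within the bounds of a protein-coding gene lay 1530 of them (70.0%), against 63.7% of scored windows and 57.2% of the 58707 scored windows with at least 20% methylation in controls, which are those that had methylation to lose. Gaining windows lay in genes in 63.1% of cases. Of 2113 losing windows on chromosomes with annotated starts, 26.3% lay 1 to 10 kb from a start, against 17.7% of the windows with methylation to lose and 18.7% of gaining windows. The median distance to a start was 22332 bases, compared with 39757 and 38000 bases. Within 1 kb of a start lay 119 losing windows (5.63%), a lower share than among scored windows (16.7%) and a higher one than among those with methylation to lose (2.56%). More than 50 kb from any gene lay 8.69% of losing windows, against 18.2% of those with methylation to lose.

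Around the losing windows, which were chosen for their decrease, the differences were smaller. Only 321 and 264 of the 2187 had a scored window directly before and directly after. Those neighbours fell by 6.92 and 7.44 points on average. When neighbours that were themselves losing windows were left out, the differences were -1.84 points (271 windows) and -2.01 points (214 windows). Leaving them out itself makes the differences smaller. From 2 to 10 kb away on either side, the neighbours that were not losing windows differed between adults and controls by -0.67 to 1.73 points. A losing window had another losing window at its side in 15.6% and 18.9% of the cases in which that side was scored. Over all scored windows, 2.61% were losing ones.

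**Figure D2:**
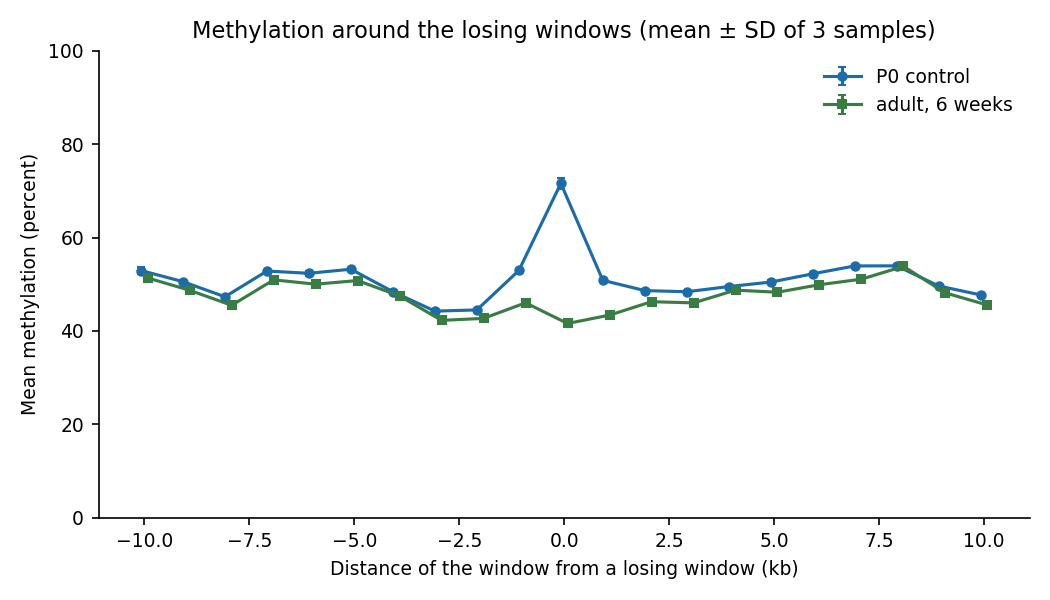
Mean methylation (percent, vertical axis) of scored windows at each distance in kb from a losing window (horizontal axis), in P0 controls and adults, with error bars for the SD of 3 samples. The gap at distance 0, where the windows were chosen (71.6% against 41.6%), narrows to 7.44 points or less at 1 kb and to under 3 points from 2 kb on.

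No other losing window was found within 5 kb of 2012 windows, and 175 lay in 83 stretches of at least 2. Most neighbouring windows were not scored, so the 2012 cannot be read as isolated losses. Stretches of at least 3 windows numbered 8. The one with 4 lay in Vdr, the vitamin D receptor gene (chr15:97896001-97901000), where all 4 scored windows lost methylation, from 53.0%, 57.1% and 69.1% in controls to 28.3%, 19.5% and 25.9% in adults. Among the longest was one in Pxn, which encodes the focal adhesion protein paxillin (chr5:115510001-115518000), where 3 of 3 scored windows fell from 72.5%, 67.6% and 74.9% to 34.2%, 41.9% and 39.9%. Another of 8 kb lay in Anks1 (chr17:28009001-28017000), with 65.5%, 65.8% and 73.1% against 53.8%, 45.5% and 37.9%. Got1, the cytosolic aspartate aminotransferase, held one of 7 kb (chr19:43511001-43518000), which fell from 88.7%, 88.4% and 85.5% to 53.5%, 57.6% and 53.8%.

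Genes were counted as holding a window when it touched their bounds or the 1 kb before their start. Of 15368 protein-coding genes holding a scored window, 1358 (8.84%) held a losing one, 187 held at least 2 and 21 at least 4. The largest number, 6, was held by Vdr (6 of 10 scored windows), Tom1l2, an adaptor of endosomal sorting (6 of 7), and Cmip (6 of 32). Of these, Cmip also held 2 gaining windows, and Vdr and Tom1l2 held none. The 6 windows of Vdr lay between chr15:97884001 and chr15:97901000.

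The 12 windows with the largest decrease, among those with at least 5 positions, fell by 52.1 to 69.4 points. In Dst, which encodes a cytoskeletal linker, the window chr1:34240001-34241000 read 81.3%, 82.5% and 86.7% in controls and 18.4%, 12.1% and 11.8% in adults. KO kidneys stood between them at 47.0%, 54.2% and 55.0%, over 3 of its 5 positions, since KO values rest on the positions covered in all 9 libraries. Rbm47, an RNA-binding cofactor of the same editing reaction as A1cf, held a window (chr5:66075001-66076000) at 74.0%, 70.5% and 85% in controls and 12.8%, 8.23% and 9.29% in adults. Its KO values were 48.8%, 47.9% and 67.4%.

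In Mgat1, which starts complex N-glycan synthesis, chr11:49261001-49262000 fell from 100%, 95.7% and 94.7% to 36.9%, 29.7% and 34.4%. Pitpnc1, a phosphatidylinositol transfer protein, fell from 78.2%, 80.4% and 91.7% to 31.0%, 13.3% and 17.6% at chr11:107379001-107380000. A window shared by Klf3 and Gm38457 (chr5:64808001-64809000) went from 73.7%, 66.3% and 77.1% to 13.8%, 13.7% and 12.9%. These 3 windows had at least 92 calls in each control and adult library.

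Klhdc7a supplied the window of this group with the most positions, 16 (chr4:139965001-139966000), at 90.4%, 83.9% and 87.5% in controls and 31.1%, 34.0% and 26.6% in adults. Tkt encodes transketolase of the pentose phosphate pathway, and its window (chr14:30561001-30562000) fell from 88.6%, 86.8% and 88.4% to 33.9%, 30.5% and 34.0%. One window lay between genes, 5974 bases from Frmd8 (chr19:5844001-5845000), and reached the lowest adult values of the 12: 2.68%, 7.04% and 7.02%, from 60.2%, 66.5% and 51.8%. The others lay in Morn1 and Rer1, Park7, Hpcal1 and Ift43.

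Among 12 lists of kidney genes, the proximal tubule list had the highest share of genes with a losing window. Of 35 proximal tubule genes with a scored window, 13 (37.1%) held a losing one, against 8.84% of all genes. In 1 gene, Slc4a4, there were gaining windows too, 3 of them. By windows, 18 of 103 were losing ones (17.5%, or 23.7% of those at 20% or more in controls), against 2.86% and 4.60% over all genes. Thick limb and distal tubule genes followed with 7 of 25 genes (28%), and 7 of the 25 held a gaining window. Transcription factors of the tubule held one in 8 of 40 genes (20%), stromal genes in 4 of 15 (26.7%) and endothelial genes in 4 of 20 (20%). Gaining windows were held by 7 of the 40 transcription factors, among them Esrrg, Nfia and Ehf, by 3 of the stromal genes and by 1 of the endothelial genes. By windows, the transcription factors had 15 losing and 12 gaining ones, and the stromal list 4 and 6. The order of the lists differs by windows: the leukocyte list had 2 losing windows of 17 (11.8%) and the thick limb and distal tubule list 10 of 135 (7.41%). No collecting duct or intercalated cell gene of 26 held a losing window, although 51 of the 98 scored windows of those genes stood at 20% or more in controls. Nephron progenitor genes held a losing window in 2 of 24 cases, with a gaining window in 7. Over all genes with a scored window, 1190 of 15368 held a gaining one. The lists were compiled with earlier results of these data known, and the counts are descriptions.

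**Figure D3:**
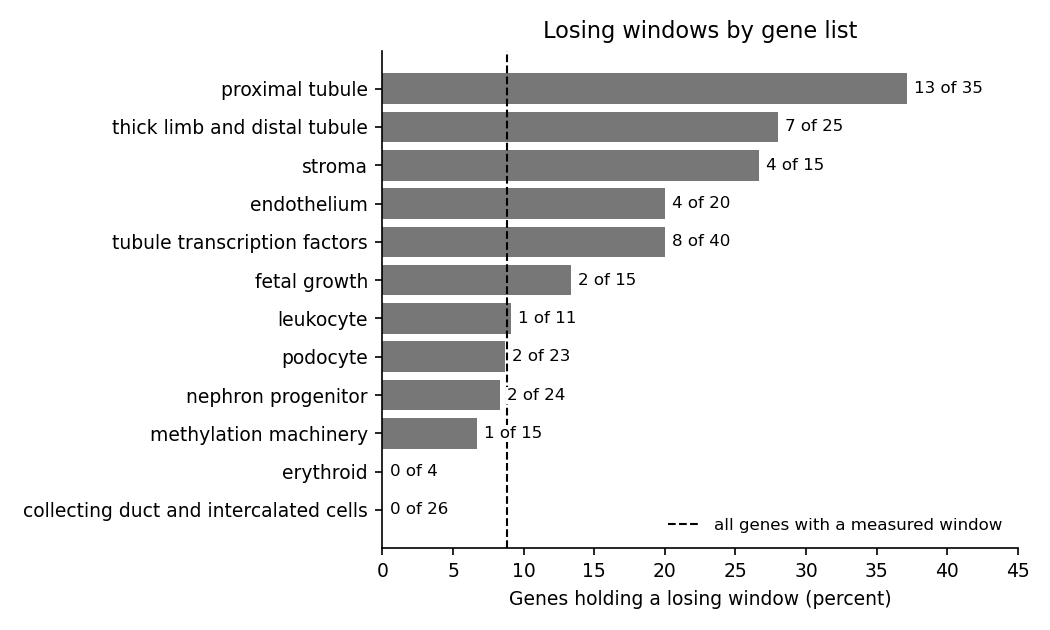
Share of the genes of each list that held a losing window (percent, horizontal axis), with the number of genes written at the bar and the share over all genes, 8.84%, as a dashed line. Proximal tubule genes reach 37.1% (13 of 35), and collecting duct genes are at 0 of 26.

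The 13 proximal tubule genes are described by role, beginning with transporters. Slc34a1, the main renal phosphate cotransporter, held 2 windows. The one at chr13:55408001-55409000 stood at 89.0%, 79.1% and 86.6% in controls and 45.1%, 53.5% and 36.0% in adults. The sodium-proton exchanger Slc9a3 showed the largest loss of the list (chr13:74140001-74141000), from 81.8%, 88.4% and 86.8% to 43.8%, 33.0% and 29.1%. That window rests on 3 positions, the minimum. The other Slc34a1 window (chr13:55401001-55402000) read 81.6%, 59.6% and 64.2% in controls and 46.5%, 30.9% and 37.7% in adults.

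Slc6a19, a neutral amino acid transporter, fell from 90.0%, 87.5% and 76.9% to 34.5%, 55.4% and 39.7% (chr13:73700001-73701000). Slc6a20b, a transporter of proline and related amino acids, fell from 86.7%, 91.0% and 89.7% to 47.7%, 42.3% and 44.6% (chr9:123625001-123626000). Slc34a3, a second phosphate cotransporter, went from 57.4%, 68.1% and 80.5% to 43.0%, 36.0% and 37.4% in a window 733 bases from its start (chr2:25233001-25234000). Slc4a4 carries bicarbonate out through the basolateral membrane. At chr5:88931001-88932000 it fell from 68.2%, 74.7% and 78.3% to 28.2%, 31.9% and 30.7%. Its other losing window had 1 adult at 77.8% beside 34.4% and 35.8%, a spread of over 40 points within the group. Slc4a4 also held 3 gaining windows, the only ones of this list.

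Other genes of the 13 serve uptake of protein and metabolism. Lrp2 encodes megalin, the large receptor for filtered protein, and its 2 adjoining windows (chr2:69545001-69547000) fell by 35.4 and 22.7 points. In the first of them, controls read 66.7%, 79.6% and 79.3% and adults 38.8%, 40.9% and 39.4%. Pck1, the rate-limiting enzyme of gluconeogenesis, began at 45.6%, 45.3% and 39.0% and reached 26.1%, 17.5% and 15.2% (chr2:173159001-173160000). Fbp1, a further gluconeogenic enzyme, fell from 56.8%, 51.5% and 42.3% to 25%, 27.2% and 34.3% (chr13:62887001-62888000). The controls of Pck1 were the lowest of the 18 proximal tubule windows.

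Gatm, the first enzyme of creatine synthesis, held 2 windows that fell by 38.3 and 39.8 points. Miox, which oxidises inositol and is restricted largely to this tubule, read 81.5%, 89.6% and 83.1% in controls and 61.5%, 49.4% and 47.1% in adults (chr15:89336001-89337000). Slc16a9 and Dpep1, a brush border dipeptidase with 2 windows, complete the 13 genes, with decreases of at least 28.0 points.

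Regulators of tubule differentiation included Hnf4a, the nuclear receptor required for proximal tubule maturation. Its window 346 bases from an annotated start (chr2:163547001-163548000, 8 positions) read 80.2%, 82.8% and 87.6% in controls and 29.9%, 41.9% and 43.1% in adults. Another 4 kb further on fell from 86.9%, 86.0% and 71.7% to 10.3%, 53.8% and 39.2%, with adult 1 far below the other 2. Vdr had the largest decrease of this list, in the window chr15:97899001-97900000, which read 85.3%, 88.3% and 85.2% in controls and 40%, 23.8% and 33.8% in adults.

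Rxra, the dimer partner of the vitamin D receptor, lost nearly all methylation at chr2:27744001-27745000, from 37.3%, 32.0% and 34.9% to 1.18%, 2.22% and 1.78%. Ppara, the receptor that drives fatty acid oxidation, held 2 windows with differences of -25.8 and -29.98 points. Esrrg, a regulator of mitochondrial energy genes, fell from 76.5%, 81.3% and 77.0% to 51.0%, 50.9% and 61.1% in 1 of its 35 scored windows (chr1:187811001-187812000). Tfcp2l1, which acts in distal and collecting duct segments, fell by 40.8 points, Nfia by 33.1 and Ehf by 22.1.

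**Figure D4:**
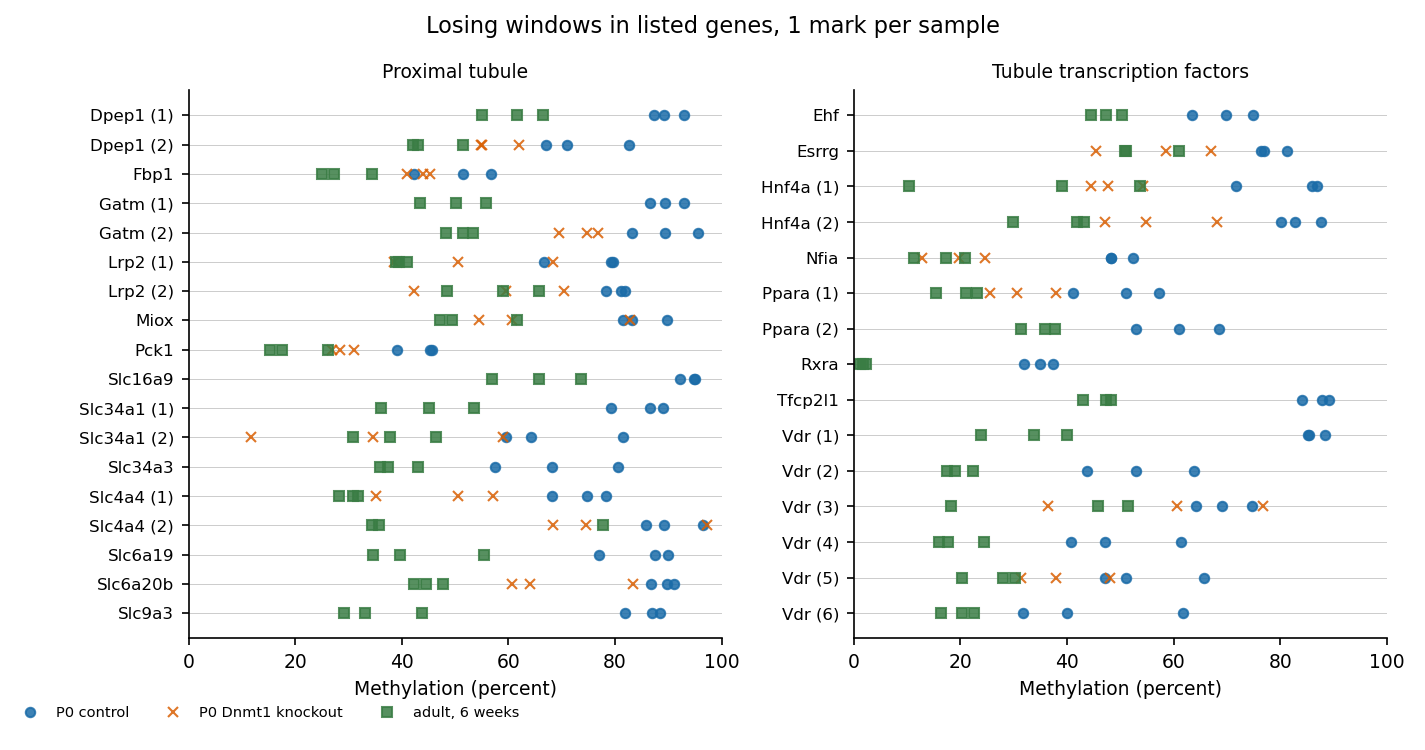
Methylation (percent, horizontal axis) of the losing windows in proximal tubule genes (left, 18 windows) and tubule transcription factors (right, 15 windows), with 1 mark per sample. Circles are P0 controls, squares adults and crosses P0 KO kidneys where measured; in each window every square lies to the left of every circle, as the choice of windows demands, and the crosses, which rest on the positions covered in all 9 libraries, vary.

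Of the distal segments, Stk39 encodes the kinase SPAK, which activates the sodium chloride cotransporter. Its window chr2:68376001-68377000 went from 66.5%, 59.1% and 62.7% to 17.9%, 14.0% and 8.24%. Slc12a3, that cotransporter, fell from 43.4%, 39.1% and 55.2% to 21.5%, 17.9% and 33.8% (chr8:94333001-94334000). Kcnj15, a potassium channel, held 3 losing windows of 5, and Sgk1, a kinase induced by aldosterone, held 2 adjoining ones with differences of -29.3 and -44.96 points. Cldn14 and Cldn19, claudins of the thick limb tight junction, fell by 30.4 and 40.3 points. Stk39 and Cldn14 also held gaining windows.

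Genes of other cell types also appeared. The endothelial genes Kdr, Flt1, Erg and Vwf held 5 windows, which fell by 20.3 to 32.5 points. Of 23 podocyte genes, 2 held a losing window (8.70%, against 8.84% of all genes) and 5 a gaining one. The 2 were Ptpro, which fell by 22.7, and Magi2, which fell by 25.8. The window of Crym, a progenitor marker, fell by 49.2 points. Arid3a and Hmga2 stood for fetal growth genes, and Hmga2 held gaining windows as well. Tet1, a methylcytosine oxidase, fell from 68.2%, 66.1% and 66.7% to 32.1%, 33.3% and 36.4% and also held a gaining window. Csf1r, a macrophage receptor, held 2 windows. No erythroid gene of 4 held one.

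The windows with the most positions, which rest on the most data, included 29 positions in Alad, an enzyme of heme synthesis (chr4:62510001-62511000). Controls there read 79.4%, 78.5% and 82.1%, adults 61.7%, 52.3% and 57.7% and, over 23 positions, KO kidneys 63.0%, 45.7% and 64.9%. The window over Abcb1a and Rundc3b (chr5:8622001-8623000, 24 positions) went from 36.3%, 26.1% and 25.3% to 0%, 0% and 0.276%. At the 5 of its positions that the KO libraries covered, controls were already at 0.636%, so the KO values of 0% to 2.35% cover only unmethylated positions of the window. Extl1 with 25, Fnta with 24 and Nuak2 with 20 positions fell by 20.02, 22.0 and 24.0 points.

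Whether the same windows respond to loss of the maintenance enzyme was asked in the KO kidneys, which the rule did not use; the controls it did use, so the difference from controls is not independent of the choice. KO libraries covered at least 3 positions with 10 calls in 1122 of the windows, and 1065 have no KO value. Over the positions shared by all 9 libraries, the KO libraries stood at 51.9%, 47.7% and 53.3%, against 71.4% ± 1.17 in controls and 41.8% ± 0.378 in adults (SD, n = 3 each). The KO mean was 51.0% ± 2.95, a difference from controls of -20.4 points, and each KO library lay above each adult library. Relative to controls, KO kidneys had lost 28.6% of the methylation in these windows. Over all 48688 windows with KO values they had lost 25.6%, with means of 52.4%, 39.0% and 52.5% in control, KO and adult.

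Window by window, a moderated quasi-binomial model fitted over all 48688 windows called 803 of the 1122 lower in KO (adjusted p under 0.05 and at least 10 points). That is the common outcome in this comparison: 51.3% of all windows were called lower, and 0.179% higher. Among windows with 80% or more in controls, 89.6% of losing windows and 92.2% of the other scored windows were called lower, with decreases of 25.2 and 23.5 points. From 60% to 80% the shares were 70.0% and 73.6%, and from 40% to 60% they were 50% and 44.3%. From 20% to 40% they were 25.5% and 20.6%, with differences of -8.41 and -5.46 points. The losing windows had the lower share in the upper 2 classes and the higher share in the lower 2.

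Measured against the adult, KO kidneys most often reached an intermediate level. The KO mean lay between adult and control in 840 windows, below the adult in 254 (22.6%) and above the control in 28. Every KO kidney was below every control in 781 windows and above every adult in 401. These counts have no like count over all 48688 windows, of which 51.3% were called lower in KO, so they mark no trait of the losing windows. By adult level, a value that the choice of windows used, the windows divide as follows. Where adults stood under 20%, the means were 44.5% in control, 31.8% in KO and 12.6% in adult over 131 windows. From 20% to 40% they were 63.2%, 45.5% and 30.8% over 365 windows, and from 40% to 60% they were 79.1%, 56.1% and 49.7% over 453. Where adults stood at 60% or more, they were 89.2%, 63.5% and 66.3% over 173 windows. The adult level sorted these classes, so the gap between KO and adult follows in part from the sorting.

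Individual windows took different courses. Among those with at least 5 positions in KO, Apbb2, an adaptor that binds the amyloid precursor protein, came nearest the adult level (chr5:66582001-66583000). KO kidneys read 56.4%, 50% and 55.6%, and at the same positions controls averaged 86.0% and adults 54.0% (adjusted p = 0.000424 in the quasi-binomial model). Minpp1, an inositol polyphosphate phosphatase, stayed nearest the control level, at 62.5%, 66.9% and 83.3% in KO and 70.9% in controls, while adults had fallen to 30.9%, 35.6% and 33.8% (chr19:32498001-32499000, adjusted p = 0.639). Mtss1, an actin-bundling protein gene, was at 41.9%, 44.5% and 54.6% in KO against 46.9% in controls, and adults at 16.9%, 6.61% and 9.77% (adjusted p = 0.878).

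The largest KO decrease with at least 5 positions lay 65646 bases from Arid5b (chr10:68345001-68346000), where KO kidneys read 27.3%, 16.4% and 11.7% against 69.2% in controls, below the adult mean of 42.2%. A single losing window was called higher in KO. It lies 16837 bases from Gjb5 (chr4:127375001-127376000), rests on 3 positions in KO and read 77.7%, 85.4% and 85.7% there, against means of 46.0% in controls and 24.9% in adults at the same positions (adjusted p = 0.00278). An unadjusted p under 0.05 in the quasi-binomial model was reached by 895 of the 1122 windows in either direction. The share over all 48688 windows at that limit was not computed. After adjustment 51.3% of them were called lower. With 5 calls per position in KO, no losing window was called higher, and without control 2 the number was 3 and without KO 2 it was 2.

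In the tubule lists, the numbers of KO calls are small and stand beside 71.6% of losing windows and 51.3% of all windows called lower. KO values existed for 11 of the 18 proximal tubule windows, and 5 were called lower, in Lrp2, Slc6a20b, Slc4a4, Pck1 and Gatm. At Pck1 the KO kidneys read 31.0%, 28.4% and 26.9% against 43.3% in controls (adjusted p = 0.00487). At Fbp1 they read 43.9%, 45.2% and 41.0% against 50.2% (adjusted p = 0.177). Of the transcription factor windows 4 of 7 were called lower. The second Hnf4a window was among them, at 54.2%, 44.4% and 47.7% against 81.5% (adjusted p = 0.00159). Nfia read 24.6%, 12.8% and 19.7% against 49.7% (adjusted p = 0.000455). Both Vdr windows with KO values missed the threshold, with adjusted p of 0.676 and 0.123 and KO kidneys spread from 36.4% to 76.7% in the first.

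RNA was not used by the rule, and no adult RNA was measured, so the question here is how genes that hold losing windows were expressed in newborn KO kidneys. Such genes were more often lower in KO than other genes were. Of 1358, 1282 passed the count filter, and 240 of these (18.7%) were lower at an edgeR adjusted p under 0.05, against 8.23% of all 18132 tested genes. Only 35 (2.73%) were higher, against 6.36%. The median log2 fold change was -0.16, compared with -0.00 over all genes. Genes with a window at 20% or more in controls but no losing window were at 8.36% lower and 5.65% higher, and genes with a gaining window at 12.01% and 5.24%.

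The share that was lower was larger in the subsets with more or larger losses. It was 29.1% (53 of 182) for genes with at least 2 losing windows, 27.3% (63 of 231) where a window fell by at least 40 points, and 26.9% (45 of 167) for genes with a start within 1 kb of one. It also differed within classes of expression and of window number, which were chosen after seeing the data. At a mean log2 CPM of 5 to 7, 19.5% of 591 genes with a losing window were lower. Of 2960 genes with a window at 20% or more in controls and no losing one, 9.73% were lower. Among genes of these same sets with a single scored window, the shares were 18.4% of 223 and 7.87% of 3302. Without RNA control 3 the counts were 363 lower and 109 higher, and without KO 1, KO 2 or KO 3 they were 117, 132 and 134 lower and 11, 12 and 13 higher. Without control 1 they were 165 lower and 9 higher. The calls over all genes moved too, to 2561 lower and 2512 higher without control 3 and to 701 lower and 647 higher without KO 1, from 1493 and 1153.

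**Figure D5:**
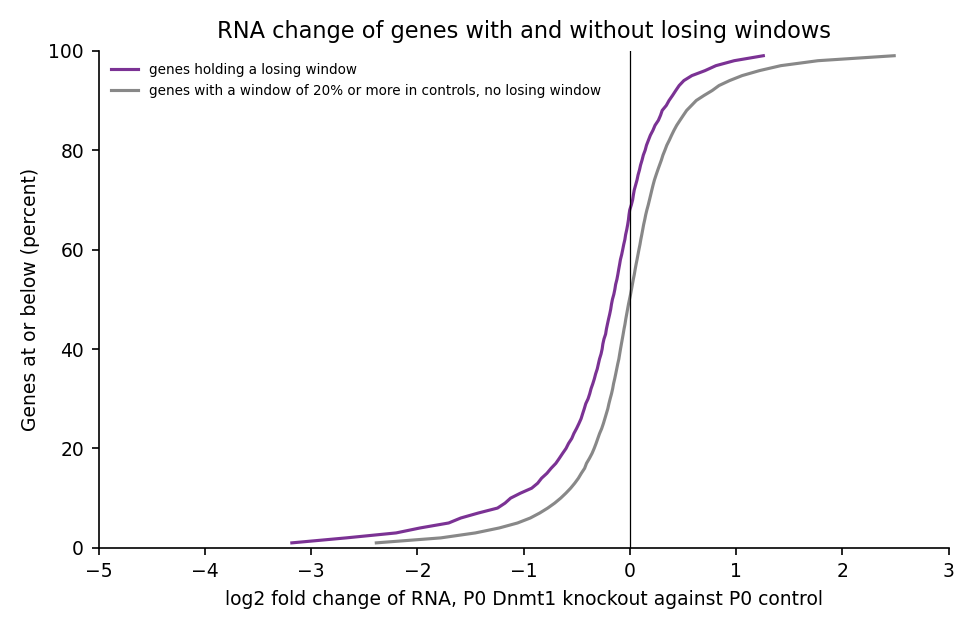
Cumulative share of genes (percent, vertical axis) by log2 fold change of RNA in P0 KO against P0 control (horizontal axis), for 1282 genes holding a losing window and 8051 genes with a window at 20% or more in controls and no losing window. The curve of genes with a losing window lies to the left, with a median of -0.16 against -0.00.

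Proximal tubule genes were mostly lower in KO, with and without a losing window. Of the 13 with one, 11 were lower in KO and none higher (median log2 fold change -3.06). Of 22 with a scored window and no losing one, 17 were lower (median -2.49). The summed CPM of the list was 5044 to 11945 in controls and 1007 to 1235 in KO, while that of the stromal list was 6402 to 8242 and 5641 to 6907, and that of the progenitor list 1571 to 1675 and 1513 to 1603. Of the other lists that could reach whole-kidney RNA, the endothelial sum was 1563 to 2095 and 990 to 1229, the podocyte sum 3439 to 4265 and 2578 to 2757, and the leukocyte sum 181 to 219 and 196 to 317. The thick limb and distal tubule sum also fell, from 2690 to 3521 in controls to 1011 to 1233 in KO. The collecting duct sum was 2144 to 2415 in controls and 1461 to 2326 in KO. For fetal growth genes it was 2621 to 5431 and 5557 to 6251, and for erythroid genes 432 to 1330 and 635 to 919. No gene of these lists that was tested was listed at 0, and the part of the cell mix in the results was not tested. Fewer lower calls were made without a KO library, 6 of 13 in each case. Without control 3, 12 of 13 were called, with a median of -1.96.

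Slc34a1 RNA stood at 436, 406 and 1546 CPM in controls and 65.0, 81.6 and 80.4 CPM in KO kidneys (log2 fold change -3.37, SE 0.52, edgeR adjusted p = 0.00396). Lrp2 was at 708, 600 and 1046 CPM against 152, 169 and 175 CPM (log2 fold change -2.22, SE 0.22, edgeR adjusted p = 0.000572). Fbp1 fell from 223, 190 and 530 CPM to 17.1, 28.7 and 23.9 CPM, and Slc6a20b from 21.4, 16.9 and 56.1 to 1.67, 2.58 and 2.47 CPM. In these 4 genes each KO library lay below each control, with control 3 the highest.

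Slc9a3 fell from 9.18, 13.1 and 23.5 CPM to 0.957, 1.70 and 0.711 CPM (log2 fold change -3.73, edgeR adjusted p = 0.00138). Miox had the largest decrease of all tested genes with a losing window that met the naming rule, with 29.3, 32.7 and 455 CPM in controls against 3.55, 4.32 and 4.57 CPM (log2 fold change -5.35, edgeR adjusted p = 0.0164). Acot3, a peroxisomal thioesterase gene, followed at -4.84 (edgeR adjusted p = 0.0163), with 7.69, 5.91 and 69.8 CPM against 0.649, 0.916 and 1.31 CPM. In both genes control 3 lay far above the other 2 controls, and leaving out KO 1, KO 2 or KO 3 raised the adjusted p of Miox to 0.0656 to 0.0804 and that of Acot3 to 0.0599 to 0.0807. Gatm and Slc4a4, lower at edgeR adjusted p of 0.0199 and 0.0164, also lost their calls without any 1 of the KO libraries (0.0631 to 0.0935 and 0.0657 to 0.0685). The same held for Slc34a3 and Dpep1. Slc16a9 and Slc6a19 missed the threshold, with edgeR adjusted p of 0.445 and 0.0523.

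Of the transcription factors, Hnf4a was at 165, 111 and 252 CPM in controls and 45.4, 57.4 and 45.7 CPM in KO (log2 fold change -1.81, SE 0.27, edgeR adjusted p = 0.00353). Esrrg fell from 57.3, 54.1 and 65.2 to 26.2, 25.5 and 21.1 CPM (log2 fold change -1.25, edgeR adjusted p = 0.000753). Vdr fell from 55.7, 31.6 and 108 to 14.6, 18.7 and 16.7 CPM (log2 fold change -1.94, edgeR adjusted p = 0.0132), a call lost without KO 1 (0.0670) or KO 3 (0.0561). Rxra, whose window lost nearly all methylation by adulthood, was at 135, 112 and 105 against 105, 122 and 98.5 CPM (edgeR adjusted p = 0.730). The other 4, Ppara, Tfcp2l1, Nfia and Ehf, missed the threshold. Thus 3 of the 8 factors with a losing window were lower in KO and 0 higher. Of 32 factors with a scored window and no losing one, 16 were lower and 2 higher, so lower RNA was not particular to the former.

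In distal segments Slc12a3 (log2 fold change -3.53), Kcnj15 (-2.41) and Cldn19 (-2.17) were lower, with edgeR adjusted p of 0.00167, 0.0098 and 0.00206. Kcnj15 lost its call without KO 1 (0.0517). Stk39 and Sgk1 were not called. Ptpro of podocytes fell by 2.53 on the log2 scale, Vwf of endothelium by 1.65 and Tmem100 of the progenitor list by 1.32. Pdgfra, a stromal receptor, was higher in KO, at 292, 251 and 269 CPM against 174, 146 and 157 CPM in controls (log2 fold change 0.79, edgeR adjusted p = 0.00401).

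Of the genes whose promoters are printed above, 4 were lower in KO and 1 was not called. These 5 were picked with their values known, so the count is no share of the losing promoters. Among 167 tested genes with a start within 1 kb of a losing window, 26.9% were lower, and among all tested genes 8.23%. Amn RNA fell from 77.3, 61.9 and 93.8 CPM in controls to 17.8, 18.3 and 23.8 CPM in KO (log2 fold change -1.93, edgeR adjusted p = 0.000500), and Dao from 58.8, 39.98 and 102 to 14.1, 14.7 and 13.7 CPM (-2.22, edgeR adjusted p = 0.00245). A1cf fell from 4.70, 3.68 and 14.6 to 1.36, 1.73 and 1.09 CPM (-2.43, edgeR adjusted p = 0.0197), and Proz from 2.22, 1.65 and 4.25 to 0.649, 0.556 and 1.01 CPM (-1.85, edgeR adjusted p = 0.0257). A1cf was not called without any 1 of the KO libraries (adjusted p 0.0571 to 0.0849), nor Proz without control 1, KO 1 or KO 2 (0.0520 to 0.115). Chdh was at 42.7, 32.1 and 76.8 against 34.0, 39.3 and 31.3 CPM, with an edgeR adjusted p of 0.296. Papolb, a poly(A) polymerase gene whose promoter is not printed, went the other way: KO promoter values of 51.2%, 55.8% and 42.6% lay below controls at 76.1%, 69.4% and 67.7%, and its RNA was higher, at 0.741, 0.883 and 1.20 CPM against 0.124, 0.291 and 0.247 CPM (log2 fold change 2.09, edgeR adjusted p = 0.0141). That call was lost without control 1 (0.0505) or KO 3 (0.0631). RNA and methylation come from separate libraries, and the labels do not say that a shared number marks the same kidney.

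Among the genes that hold the 12 largest window losses, Rbm47 and Mgat1 were called, and the others were not. Rbm47 RNA was lower, at 33.9, 39.7 and 33.2 CPM in KO against 93.9, 67.8 and 75 CPM (log2 fold change -1.12, edgeR adjusted p = 0.00177), and Mgat1 fell by 0.46 on the log2 scale (edgeR adjusted p = 0.0319). The Mgat1 call was lost on leaving out any library but control 3 (adjusted p 0.0509 to 0.152). Dst, at 33.7, 32.2 and 48.6 CPM in controls and 41.0, 34.9 and 41.8 CPM in KO, had an edgeR adjusted p of 0.865, and Pitpnc1, Klf3, Klhdc7a, Tkt, Park7, Hpcal1, Morn1, Rer1 and Ift43 were not called either. Got1, with its stretch of 3 windows, fell by 0.87 (edgeR adjusted p = 0.00454), while Pxn and Anks1 were not called. Tom1l2, with its 6 windows, fell by 0.80 on the log2 scale (edgeR adjusted p = 0.0147), a call lost without any 1 of the KO libraries (0.0509 to 0.0680).

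The increases were smaller. Kif5c, a kinesin motor gene, rose from 18.5, 19.3 and 12.8 CPM to 35.1, 42.0 and 37.0 CPM (log2 fold change 1.20, edgeR adjusted p = 0.00369). Megf10, a receptor for apoptotic cells, rose from 4.79, 5.88 and 6.28 to 12.6, 13.6 and 12.5 CPM (log2 fold change 1.21, edgeR adjusted p = 0.00367). Ifi47, an interferon-induced GTPase gene, was at 1.02, 1.23 and 1.26 CPM against 4.26, 1.67 and 7.34 CPM (log2 fold change 1.94, edgeR adjusted p = 0.0364). Anks1b rose by 1.67 and Ptgds by 1.24 on the log2 scale. The calls of Ifi47, Anks1b and Ptgds were each lost without control 1, KO 1 or KO 3, with adjusted p from 0.0600 to 0.126, that of Ifi47 also without control 2 and that of Anks1b without KO 2.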

How the data were processed

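RRBS was deposited for 9 samples and RNA-seq for 6. The deposited RRBS files list, for each cytosine, a methylation percent and the 2 call counts behind it. The deposited RNA files hold raw read counts per gene, and 22.9% to 35.8% of the reads were unassigned and left out. Trim Galore, Bismark, STAR 2.4.1d, HTSeq 0.6.1, mm10 and GRCm38 are named per the submitters' processing notes. Strandedness of the counting is not given in the sources used here, so overlapping genes cannot be told apart in RNA.

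Windows of 1000 bases were summed from positions with at least 10 calls. PCR copies were not identified, so calls are not independent molecules. At RefSeq promoters 99.6% of the positions fell on a CpG of GRCm38.p6. Coordinates are 1-based, and gene bounds are RefSeq's. KO values use the positions covered in all 9 libraries. The KO contrast was a quasi-binomial model with moderated dispersion (Python 3.11.15, numpy 2.4.6, scipy 1.17.1), and RNA the quasi-likelihood test of edgeR 4.0.16 (R 4.3.3, TMM, filterByExpr), both with Benjamini-Hochberg adjustment over all features and checked on simulated data. In simulated data, 90.7% of windows lowered by 25 points were recovered. For RNA, simulated with the same spread for all genes, 8% of 1.5-fold, 54% of 2-fold and 96% of 4-fold changes were recovered. A gene that was not called may therefore have changed. The labels do not say that samples are separate animals, so p-values measure the spread between these samples, which may be technical.

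Named windows are the 12 largest decreases with at least 5 positions, the largest of each gene list, the 5 with most positions, the 3 nearest each side of the limit, the 3 longest stretches, and the 5 nearest the control and adult level in KO. Named genes hold these or a printed promoter, or are the 5 largest increases and decreases with separate groups and an average log2 CPM of 1 or more. Not all are described, and other windows, promoters and genes of the lists were named after their values were seen. Some genes counted in the lists are not reported here by name. The members, lists and rules were chosen with earlier results of these data known. Alternatives were coverage, window, limit, dispersion, scaling, filter, DESeq2 1.42.0, a replicate block and each replicate left out. Genome sequence outside RefSeq promoters and exon structure were not used here.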

Additional observations from a re-analysis of the deposited data

Results flagged for a closer look

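Adult RRBS libraries carried 0.113% of their calls on the Y chromosome (SD 0.0156, n = 3), above each control and KO library (group means 0.0234% and 0.0213%), in data that the window comparison did not use. Their X share was 1.38% against 2.36% in controls and 2.31% in KO. The part of sex in the autosomal windows was not tested.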

How the results depend on the processing

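The number of losing windows was 2187. It was 1034 with 20 calls per position, 788 with at least 5 positions, 1376 with a 25-point limit and 871 with a 30-point limit, each a narrower rule. The other alternatives gave 1889 to 3093, of which the 3093 with 5 calls held 2037 of the 2187, and leaving out a replicate gave 2280 to 2440. The KO calls among them, 803 lower and 1 higher, were 359 lower with a 25-point difference, 512 with unmoderated dispersion and 1244 with 5 calls in KO, where 0 were higher. Leaving out a replicate gave 635 to 800 lower and 1 to 3 higher (3 without control 2 and 2 without KO 2). The KO difference of -20.4 points ranged from -18.8 to -21.6. Of genes holding a losing window, 240 were lower and 35 higher. A limit of 0.01 on the adjusted p left 117 and 7, and starts within 1 kb 45 and 4, and 54 were higher by DESeq2, which called 288 lower. Leaving out a replicate gave 117 to 363 lower and 9 to 109 higher. The counts of lower genes moved by over 1.5 times without control 3 (363), KO 1 (117), KO 2 (132) and KO 3 (134), and those of higher genes without control 1 (9), control 3 (109), KO 1 (11), KO 2 (12) and KO 3 (13). Library size alone gave 168 lower. Clcn7 and Neurl4, uncalled with all libraries, turned to 0.35 and 0.31 (adjusted p 0.0336 and 0.0300) without control 3, with ranges over the replicates left out of -0.27 to 0.35 and -0.17 to 0.31. Deviations of same-numbered controls and KO samples had correlations of -0.0133, 0.00166 and 0.0011 in RRBS and -0.285, -0.102 and -0.147 in RNA. With 3 samples per group, these values cannot tell whether the numbers pair samples. With a replicate block, 762 windows were lower and 2 higher, and 176 genes were lower and 15 higher. KO values are missing for 1065 windows, KO 3 had a median of 4 calls per position, and 883 windows rest on 3 positions, which limits what single windows can show.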
